A study of Mus musculus with 12 samples.

Results

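The suppressor of cytokine signalling (SOCS) genes Socs1, Socs2, Socs3 and Cish and the dual-specificity phosphatase (DUSP) genes Dusp1, Dusp2, Dusp4, Dusp5, Dusp6 and Dusp16 were examined for accessible chromatin in brain macrophages of mouse bone marrow (BM) chimeras. All peaks whose nearest annotated gene was 1 of these 10 genes were taken. They numbered 81 of 60288 peaks in untreated mice and 85 of 54953 peaks in mice given lipopolysaccharide (LPS). Dusp6 held 26 and 28 of them, whereas Socs2 and Dusp5 held 2 each in both tables.

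Libraries came from WT C57BL/6J mice and were made by ATAC-seq, which cuts and tags open DNA with a transposase. Recipients had received 950 cGy of irradiation before a transfer of donor BM carrying the CD45.1 form of the leukocyte antigen CD45, so that all 4 groups come from irradiated brains. The 4 groups were graft-derived CD45.1 cells and host CD45.2 microglia, each from untreated mice and from mice killed 12 h after 2.5 mg/kg LPS, a bacterial endotoxin. Each group held 3 libraries, from untreated mice 4, 5 and 6 and LPS mice 1, 2 and 3. Libraries that share a number are taken here as the 2 populations of 1 brain. The chimeras for sequencing are described as taken 9 months after the transfer, while the labels allow 3.5 or 9 months, and the host cells were irradiated while the grafted cells were not.

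SOCS proteins and CIS, the product of Cish, are induced by cytokines through STAT transcription factors and then bind cytokine receptors or Janus kinases and shut the signal off. DUSPs of the MAP kinase phosphatase group remove phosphate from ERK, p38 and JNK, and several are themselves induced by the kinases that they switch off. In macrophages both families are known as brakes on the response to LPS and to the cytokines that follow it. An ATAC-seq peak marks open chromatin and is not a measure of transcription.

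Libraries held 8392877.5 to 9107770 total tags in untreated mice and 2966364 to 6556594.5 after LPS, of which 18.4 to 39.0% and 26.3 to 38.9% fell in merged peaks. The lowest share belonged to the CD45.2 library of untreated mouse 4. All 9 microglia markers had peaks in both tables, and their summed normalised tags were lower in CD45.1 cells (2169 to 2919 untreated) than in CD45.2 cells (3591 to 3878). The 5 markers of BM-derived brain macrophages were higher in CD45.1 cells (980.1 to 1036 against 621.3 to 646.5). Both lists hold genes that the authors report as differing between graft and host in these chimeras, such as Apoe, Ms4a7 and Sall1. These directions are therefore no independent check of cell identity. Markers of neurons (80.7 to 88.5 against 212.8 to 239.7), astrocytes (226.7 to 274.6 against 327.3 to 404.0) and endothelial cells (669.7 to 689.5 against 912.8 to 984.8) were lower in CD45.1 cells. The 2 B cell markers with peaks were higher in CD45.1 cells (138.0 to 166.7 against 69.3 to 90.04), also after LPS (30.7 to 52.98 against 19.2 to 29.5), with no peak at Cd79a or Pax5. The sums of T cell, monocyte and oligodendrocyte markers overlapped at rest between the populations, with no peak at Cd3e in either table, and of these the monocyte sums lay apart after LPS (65.2 to 70.8 against 73.1 to 84.6). Neutrophil sums were 312.2 to 348.3 in CD45.1 and 305.4 to 311.1 in CD45.2 cells at rest. There 4 of the 8 neutrophil markers had peaks, and S100a8, Ly6g, Camp and Cxcr2 had none. In LPS mice 7 of the 8 had peaks, all but Ngp, and the sums overlapped (114.8 to 147.6 against 119.3 to 195.4). Of the 3 monocyte markers 2 had peaks at rest, all but Chil3, and 3 after LPS. What part this had in the comparisons with LPS was not tested. After LPS the microglia sums were 895.1 to 1037 against 1130 to 1360, and the BM-derived macrophage sums 365.5 to 440.4 against 268.1 to 292.0. The lists that did not overlap moved with the population, and their part in the comparisons of CD45.1 with CD45.2 was not tested. In such bulk libraries, a peak open in fewer cells and a peak less open in each cell cannot be told apart.

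The sequences of the 5 member peaks with the smallest adjusted p between the populations (outside untranslated exons) are shown first, because they carry the differences described here. They are read from mm9, plus strand, with matches to the motifs named further on in capitals. At Dusp6, the peaks 51591 bp upstream, 20938 bp upstream and 5583 bp downstream of the start site were more open in CD45.1 cells, that 16523 bp downstream was more open in CD45.2 cells, and the Dusp16 peak lies in an intron.
Dusp6 51591 bp upstream, chr10:98674190-98674358 (LPS table): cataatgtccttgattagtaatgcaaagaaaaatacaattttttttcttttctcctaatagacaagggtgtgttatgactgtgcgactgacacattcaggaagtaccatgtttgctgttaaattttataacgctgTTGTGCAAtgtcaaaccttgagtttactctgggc
Dusp6 20938 bp upstream, chr10:98704829-98705025: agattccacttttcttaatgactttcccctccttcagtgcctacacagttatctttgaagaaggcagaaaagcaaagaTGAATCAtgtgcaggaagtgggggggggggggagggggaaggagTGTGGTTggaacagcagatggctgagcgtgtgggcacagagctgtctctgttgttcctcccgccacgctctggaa
Dusp6 5583 bp downstream, chr10:98731312-98731585: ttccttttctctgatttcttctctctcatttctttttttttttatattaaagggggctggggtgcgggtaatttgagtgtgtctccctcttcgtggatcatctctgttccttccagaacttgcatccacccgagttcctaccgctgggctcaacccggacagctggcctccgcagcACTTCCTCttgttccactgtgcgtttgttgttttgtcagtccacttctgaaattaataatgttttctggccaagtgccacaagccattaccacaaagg
Dusp6 16523 bp downstream, chr10:98742312-98742465: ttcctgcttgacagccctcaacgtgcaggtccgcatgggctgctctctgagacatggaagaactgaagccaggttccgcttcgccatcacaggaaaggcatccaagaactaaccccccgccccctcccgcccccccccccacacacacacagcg
Dusp16 intron, chr6:134702386-134702522: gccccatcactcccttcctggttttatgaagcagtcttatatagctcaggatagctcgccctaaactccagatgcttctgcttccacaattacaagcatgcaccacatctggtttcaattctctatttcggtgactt
The first holds a CEBP match, the second an AP-1 and a RUNX match and the third an ETS match, while the last 2 hold none of the 8 motifs searched.

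At rest, the peaks nearest to the start sites of all 10 genes were present in all 6 libraries' own peak lists and none was called different between graft-derived and host cells (adjusted p under 0.05 by DESeq2, where 14.9% of all 59170 tested peaks passed, 5% of promoter peaks). Each was compared as normalised tags, which are tags divided by the library's size factor. Per 100 bp of peak, the Dusp6 start site was the most open, with 151 normalised tags in grafted and 166 in host cells, followed by Dusp5 (110 and 108). Socs2 was the least open (11.8 and 20.7), below Cish (34.0 and 37.5).

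Among the SOCS genes, the Socs1 start-site peak (chr16:10785623-10785783) held 100.3, 110 and 109 normalised tags in CD45.1 cells of mice 4, 5 and 6 and 99.1, 108 and 95.3 in CD45.2 cells. Socs1 encodes an inhibitor of Janus kinases that restrains interferon signalling, and the 2 populations overlapped at its start site. The Socs3 peak, 104 bp inside the gene in the first exon (chr11:117830492-117830661), held 115, 78.9 and 138 in CD45.1 and 138, 120 and 109 in CD45.2 cells. Socs3 encodes the inhibitor of receptors of the interleukin-6 family, and its groups overlapped too, with a log2 fold change of CD45.1 over CD45.2 of -0.13 ± 0.21 (SE, n = 3 mice, adjusted p = 0.813 by DESeq2).

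The Cish start-site peak (chr9:107198846-107198991) held 56.4, 46.5 and 45.8 normalised tags in CD45.1 cells and 61.4, 58.0 and 45.02 in CD45.2 cells, again overlapping. Socs2, whose product limits growth hormone signalling, stood apart. Its start-site peak (chr10:94879367-94879541) held 17.7, 27.4 and 16.9 in CD45.1 cells and 42.6, 32.1 and 34.1 in CD45.2 cells, so every CD45.1 library lay below every CD45.2 library. The difference was -0.78 ± 0.36 on the log2 scale and did not pass the test (adjusted p = 0.153 by DESeq2). Populations that do not overlap were common, at 35.5% of all tested untreated peaks and 30 of 78 member peaks (38.5%).

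Among the phosphatases, the promoters of Dusp1, Dusp2, Dusp4, Dusp5, Dusp6 and Dusp16 differed by -0.21 to 0.14 on the log2 scale, with adjusted p from 0.546 to 0.955 (DESeq2). Dusp1 acts on p38 and JNK, Dusp2, Dusp4 and Dusp5 work in the nucleus, Dusp6 holds ERK in check in the cytoplasm and Dusp16 acts on JNK. The Dusp6 promoter (chr10:98725768-98725893) held 184, 191 and 197 normalised tags in CD45.1 cells and 277, 180 and 172 in CD45.2 cells. The highest of these values came from the CD45.2 library of mouse 4, and the 2 groups overlapped.

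Summed over all peaks of a gene, none of the 10 members was called either, where 15.1% of 16174 genes passed. The smallest adjusted p was 0.0777 for Socs2, with 20.1, 29.2 and 20.7 normalised tags in CD45.1 and 45.8, 38.7 and 41.8 in CD45.2 cells (log2 fold change -0.83 ± 0.34). The sums of Dusp1 were 711.1, 751.6 and 976.5 in CD45.1 against 618.9, 699.5 and 676.5 in CD45.2 cells (0.28 ± 0.12, adjusted p = 0.0988). Those of Dusp4 were 363.7, 407.1 and 346.6 against 505.1, 409.3 and 455.5 (-0.28 ± 0.12, adjusted p = 0.107). In each of these 3 genes the populations did not overlap. Nor did they at Socs1, with 302.6, 344.5 and 347.6 against 363.5, 383.8 and 365.0 (-0.16 ± 0.12, adjusted p = 0.472 by DESeq2). The share of all gene sums without overlap was not computed. With edgeR's quasi-likelihood test 2 of the 10 sums passed, Socs2 and Dusp4, both lower in CD45.1 cells.

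**Figure D1:**
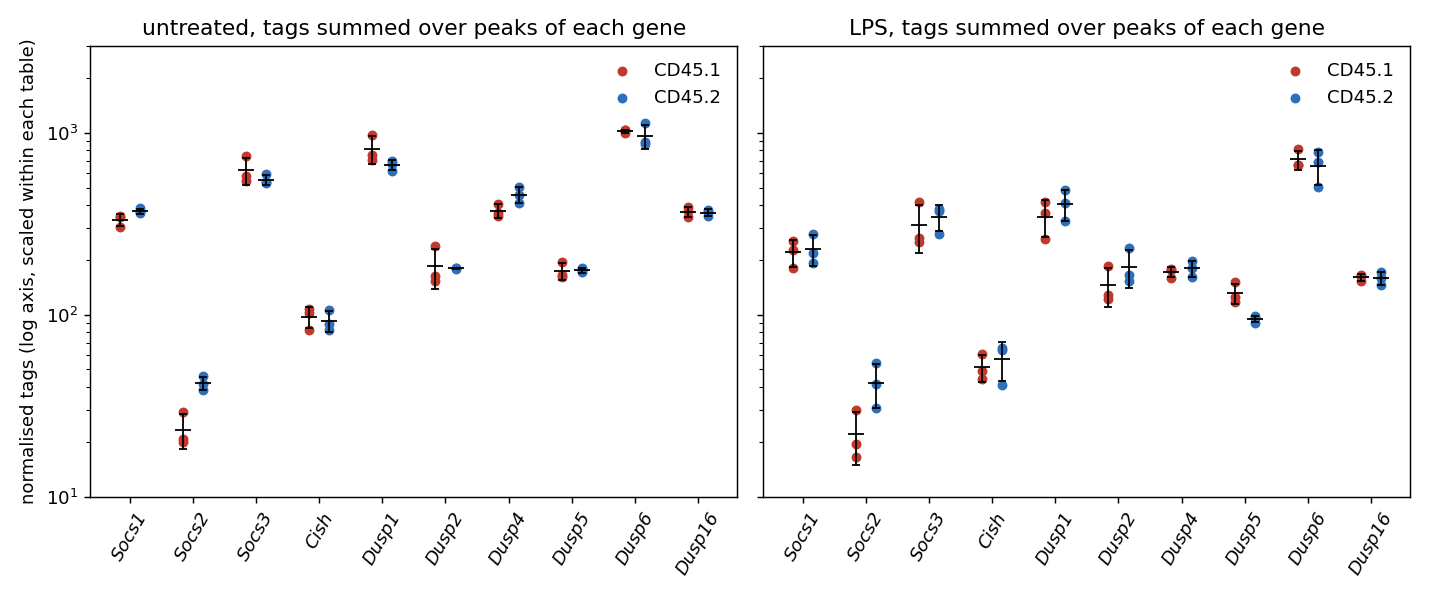
Normalised tags summed over all peaks of each SOCS and DUSP gene (log axis), for untreated mice (left) and LPS mice (right), with points for the 3 CD45.1 (red) and 3 CD45.2 (blue) libraries and black marks for the mean ± SD. Socs2 lies lower in CD45.1 than in CD45.2 cells in both panels (23.3 ± 5.11 against 42.1 ± 3.59 untreated), without passing the test, and the 2 panels are scaled separately.

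The calls at rest lay away from the start sites. Of 12 tested promoter peaks 0 were called, too few peaks to set apart from the 5% of all promoter peaks. Of 78 tested member peaks, 8 were higher in CD45.1 and 2 higher in CD45.2 cells (background 8.55% and 6.3% of all tested peaks), and the total of 10 is 12.8% of the members against 14.9% of all peaks. The median log2 fold change of the members was -0.0020 against 0.0017 over all peaks. Of the 10, 5 were annotated to Dusp6, which held 25 of the 78 tested peaks, 2 to Dusp1 and 1 each to Socs3, Dusp4 and Dusp16. With stricter limits (over 4-fold, adjusted p below 0.01), 3 passed, all at Dusp6 (6.43% of all peaks).

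The most significant was the intergenic Dusp6 peak 5583 bp downstream of the start site, whose sequence is given above. It held 145, 154 and 129 normalised tags in CD45.1 cells of mice 4, 5 and 6 and 72.9, 61.5 and 54.3 in CD45.2 cells. Every grafted library lay above every host library, with a log2 fold change of 1.21 ± 0.20 (adjusted p = 1.63e-07 by DESeq2).

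Further upstream of Dusp6, 2 peaks were open in grafted cells and near the detection limit in host cells. The peak 20938 bp upstream held 31.2, 14.6 and 32.7 normalised tags in CD45.1 and 5.73, 0.387 and 5.27 in CD45.2 cells (2.97 ± 0.66, adjusted p = 0.000156). This call was lost without any one of the 3 CD45.1 libraries or without the CD45.2 library of mouse 6, with adjusted p from 0.0841 to 0.286. The peak 51572 bp upstream held 10.3, 6.39 and 28.3 in CD45.1 cells and 1.64, 0.774 and 0.811 in CD45.2 cells. All 3 host libraries held at most 3 tags there, so CD45.1 was at least 4.65-fold higher when host libraries are set to 3 tags each (adjusted p = 0.00236). Mouse 6 had the highest CD45.1 value at that peak, and without its CD45.1 library the adjusted p was 0.0828.

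The reverse held 16523 bp downstream of Dusp6, where CD45.1 cells held 3.73, 1.37 and 1.09 normalised tags and CD45.2 cells 32.7, 15.1 and 24.3 (-3.39 ± 0.72, adjusted p = 5.92e-05). This peak was in the own lists of all 3 host libraries and of no grafted library, which rests on the same tags and is no separate support. Here and at the peaks 20938 and 51572 bp upstream, 1 population alone exceeded 10 tags. Those peaks were therefore tested only because of the higher group. The fifth Dusp6 call, 65334 bp upstream, lies at the transcript end of the neighbouring gene Poc1b and held 59.7, 54.8 and 53.4 against 18.01, 32.5 and 32.9 (0.96 ± 0.30, adjusted p = 0.0140). Peaks were given to Dusp6 because its start site is nearest, which does not show that they act on it.

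**Figure D2:**
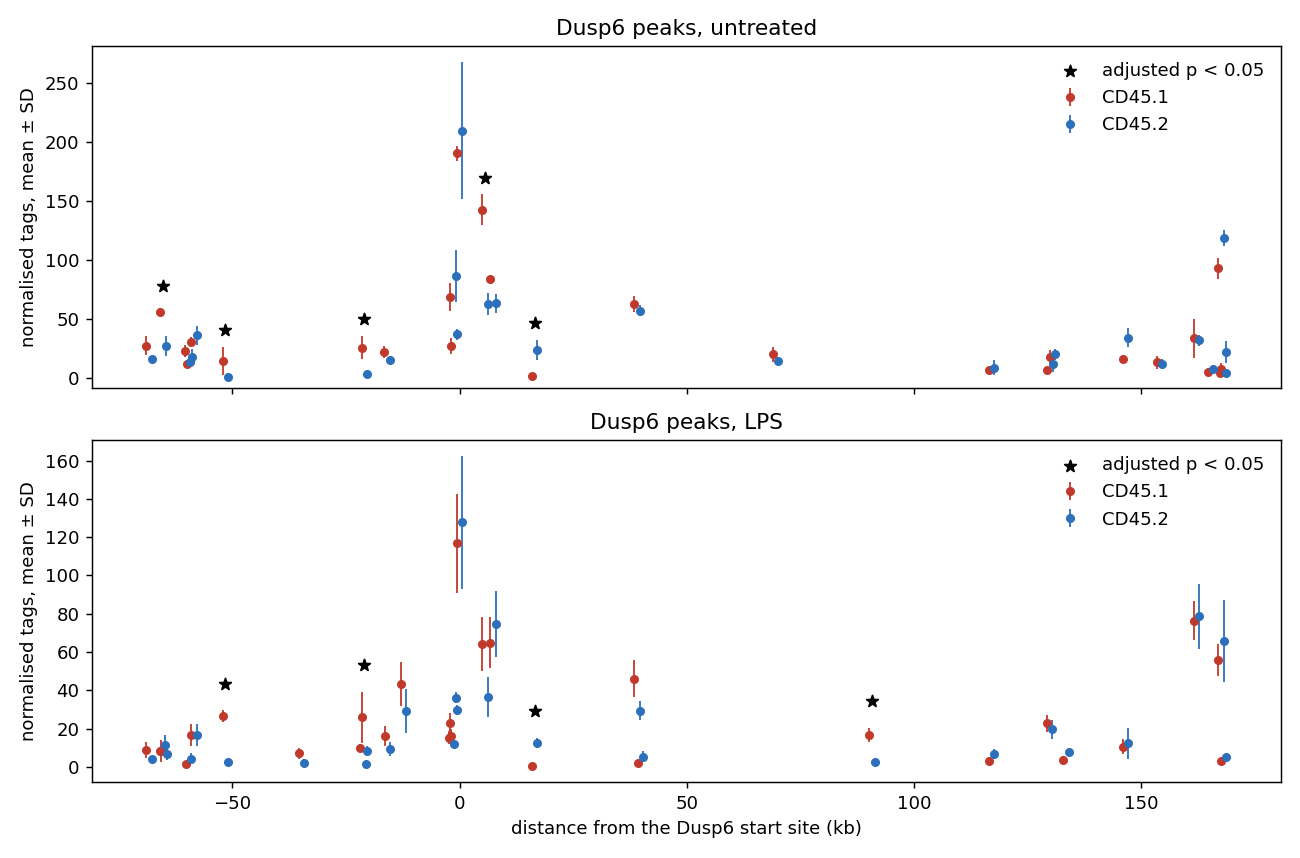
Mean ± SD of normalised tags (3 libraries) at every peak annotated to Dusp6, by distance from its start site in kb, in CD45.1 (red) and CD45.2 (blue) cells of untreated (top) and LPS mice (bottom), with a star at an adjusted p under 0.05. The start site is high in both populations (191 and 210 untreated), and the starred peaks lie away from it, with that 16523 bp downstream higher in CD45.2 cells.

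At the other genes, the Dusp16 intron peak (chr6:134702386-134702522), 40192 bp inside the gene, held 43.4, 46.1 and 56.1 normalised tags in CD45.1 and 13.1, 24.8 and 18.7 in CD45.2 cells (1.30 ± 0.35, adjusted p = 0.00217). The Dusp4 call (chr8:35928778-35928925) was higher in CD45.2 cells, with 64.7, 39.1 and 54.3 against 25.6, 34.2 and 15.3 in CD45.1 cells (-1.02 ± 0.34, adjusted p = 0.0219). It is 58187 bp from the Dusp4 start site and lies in an intron of Tnks. Neither pair of groups overlapped.

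The 2 Dusp1 calls lay upstream. At 25567 bp (chr17:26670904-26671065), CD45.1 cells held 73.2, 83.5 and 129 and CD45.2 cells 44.2, 53.4 and 69.4 normalised tags (0.74 ± 0.26, adjusted p = 0.0321). At 6372 bp (chr17:26651737-26651841) the CD45.1 values were 5.13, 6.39 and 29.97 against 4.09, 2.32 and 2.03 in CD45.2 cells. Mouse 6 set the CD45.1 mean and so the bound of 4.29-fold on it (adjusted p = 0.0207 by DESeq2). The peak exceeded 10 tags in that CD45.1 library alone and could not be tested without it. The Socs3 call, 22535 bp downstream (chr11:117808034-117808256), held 87.2, 105 and 99.7 against 46.7, 67.3 and 69.0 (0.65 ± 0.23, adjusted p = 0.0316). With the mouse as a block, 5 of the 10 calls held. The 2 Dusp1 calls, the Socs3 and Dusp4 calls and the Dusp6 call at 65334 bp did not, with adjusted p from 0.0661 to 0.149. Scaled to total tags, 5 of the 10 held too. The Dusp16 call was lost there (adjusted p = 0.0826). So were the Dusp1 call at 25567 bp, the Socs3 and Dusp4 calls and the Dusp6 call at 65334 bp (0.235 to 0.605). Without the CD45.1 library of mouse 4, 5 or 6, 6, 6 or 4 of the 10 calls held, and without the CD45.2 library of mouse 4, 5 or 6, 6, 6 or 5 held. The Dusp6 calls 5583 and 16523 bp downstream kept an adjusted p under 0.05 in every alternative fit, though the first is under the 4-fold limit.

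Peaks of a gene did not all lean the same way. Of the 10 tested Socs1 peaks 9 were lower in CD45.1 cells, with a median log2 fold change of -0.51, and none passed the test. The peaks 10690, 95577 and 119763 bp downstream were weak and at rest in the own lists of CD45.2 libraries alone. Such peaks are listed because host libraries called them, which in part sets their lean. The Socs1 start-site peak lay at 0.078 and the gene sum at -0.16. For Dusp4 7 of 10 were lower (median -0.47) and for Dusp1 7 of 8 were higher (median 0.19). How common such leans are over all genes was not computed.

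**Figure D3:**
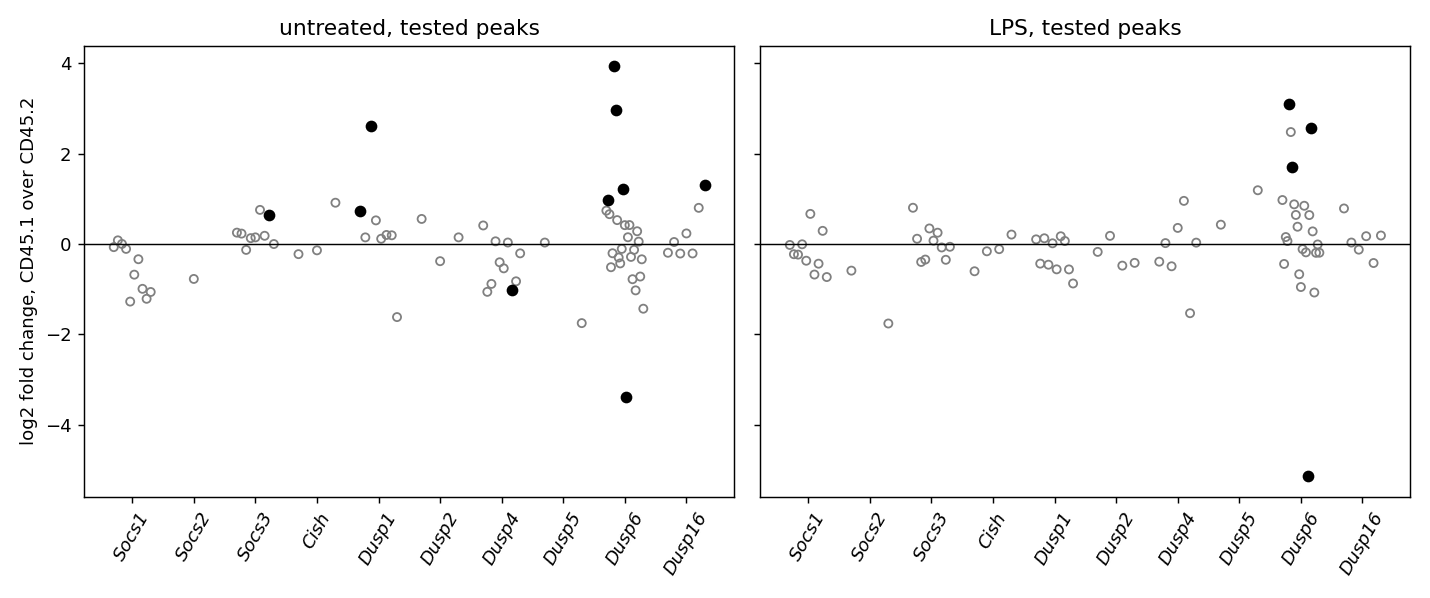
Log2 fold change of CD45.1 over CD45.2 for each tested SOCS and DUSP peak (78 per table), grouped by gene and ordered within a gene by distance, in untreated (left) and LPS mice (right). Filled points passed an adjusted p of 0.05 (10 and 4) and open points did not, and after LPS the filled points are all at Dusp6.

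After LPS, the same comparison gave 4 calls among 78 tested member peaks, 3 higher in CD45.1 and 1 higher in CD45.2 cells (5.13% against 6.47% of all 49180 tested peaks, 4.1% and 2.38% by direction). All 4 lay at Dusp6, which held 23 of the 78 tested peaks, and none at a start site. With 13 tested promoter peaks, this cannot be set apart from the 2.18% of all promoter peaks. The shallower LPS libraries carry more counting error, and whether the populations differed less after LPS is asked by the interaction given further on. None of the 10 gene sums was called (6.98% of 15722 genes), Socs2 again having the smallest adjusted p (0.130), with 29.9, 19.6 and 16.6 normalised tags in CD45.1 cells of mice 1, 2 and 3 and 41.8, 54.1 and 30.7 in CD45.2 cells. By edgeR's quasi-likelihood test 0 sums passed as well.

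The Dusp6 peak 51591 bp upstream held 27.5, 22.8 and 28.8 normalised tags in CD45.1 and 1.74, 1.31 and 4.47 in CD45.2 cells of LPS mice. The grafted libraries were close together and all above the host libraries (3.10 ± 0.62, adjusted p = 6.18e-05 by DESeq2). It was in the own lists of all 3 CD45.1 LPS libraries, of 2 CD45.1 untreated libraries and of no host library. The LPS lists rest on the same tags and are no separate support.

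The Dusp6 peak 16503 bp downstream again faced the other way, with 0.809, 0 and 0 normalised tags in CD45.1 and 15.7, 11.8 and 10.4 in CD45.2 cells, so CD45.2 was at least 4.13-fold higher (adjusted p = 0.00373). At 20955 bp upstream, CD45.1 cells held 19.8, 41.1 and 16.5 and CD45.2 cells 9.58, 9.59 and 5.07 (1.71 ± 0.53, adjusted p = 0.0239). With the mouse as a block this call was lost (adjusted p = 0.111). The fourth call, 90820 bp downstream (chr10:98816595-98816776), overlapped no merged untreated peak, though 2 untreated CD45.1 libraries had own peaks there. It held 12.5, 18.9 and 18.9 against 2.61, 0 and 4.47 (2.55 ± 0.72, adjusted p = 0.0104). Apart from the call 20955 bp upstream, these Dusp6 calls exceeded 10 tags in 1 population alone and were tested only because of it. Without the CD45.1 library of LPS mouse 2, 1 of the 4 calls held, and without that of mouse 3 or the CD45.2 library of mouse 2, 2 held. The call 51591 bp upstream kept an adjusted p under 0.05 in every alternative fit.

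The start-site peaks after LPS gave log2 fold changes from -0.59 at Socs2 to 0.43 at Dusp5, with adjusted p from 0.243 to 0.987. Dusp5 (chr19:53603400-53603639) held 115, 147 and 114 normalised tags in CD45.1 and 87.9, 95.9 and 93.7 in CD45.2 cells, the only start-site peak of the 10 at which these populations did not overlap (27.2% of all tested LPS peaks, 17 of 78 member peaks). The peak 5637 bp downstream of Dusp6, the counterpart of the clearest untreated call, held 73.2, 71.7 and 47.8 against 45.3, 39.7 and 25.1 (0.84 ± 0.31, adjusted p = 0.0807).

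LPS against untreated was compared at the 51 member peaks that overlapped reciprocally by at least 50% between the tables, in 1 model over all 12 libraries. In CD45.1 cells 9 rose and 4 fell, and in CD45.2 cells 8 rose and 1 fell. That is 25.5% and 17.6% of the members, against 19.9% and 16.6% of all 39235 matched peaks (12.5% and 11.6% higher, 7.42% and 5.04% lower). The 5 called in both populations rose in both, and were chosen to be named after their values were seen. The share of all matched peaks called in both populations was not computed. Peaks of each treatment were called and counted separately, and LPS peaks were wider (median ratio 1.22), so treatment and table cannot be told apart here. Scaled to the width of each peak, 10 and 9 peaks passed, and scaled to total tags, 5 and 5. Without the CD45.1 library of LPS mouse 3, 7 passed in CD45.1 cells.

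The sequences of the 2 peaks called most clearly in both populations, read from mm9 on the plus strand at their LPS coordinates, are shown because they rose in graft and host.
Dusp6 162223 bp downstream, chr10:98888011-98888166: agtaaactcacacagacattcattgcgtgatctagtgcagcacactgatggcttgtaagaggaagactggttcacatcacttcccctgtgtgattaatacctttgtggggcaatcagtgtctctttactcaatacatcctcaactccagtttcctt
Dusp2 13087 bp upstream, chr2:127148704-127148912: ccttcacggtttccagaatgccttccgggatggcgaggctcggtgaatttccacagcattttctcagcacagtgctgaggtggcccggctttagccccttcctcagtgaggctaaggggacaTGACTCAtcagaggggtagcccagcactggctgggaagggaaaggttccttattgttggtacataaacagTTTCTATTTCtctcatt
The Dusp2 peak holds an AP-1 and an IRF match, and the Dusp6 peak holds none of the motifs searched.

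Scaled over all 12 libraries, the Dusp6 peak 162223 bp downstream held 19.6, 13.8 and 34.4 normalised tags in untreated and 112, 128 and 97.2 in LPS CD45.1 cells. In CD45.2 cells it held 21.2, 18.98 and 25.01 untreated and 135, 119 and 88.4 after LPS. The rise was of near equal size in graft and host, 2.33 ± 0.27 and 2.35 ± 0.27 on the log2 scale (adjusted p = 1.93e-15 and 1.59e-15 by DESeq2). The peak widths were 147 and 156 bp.

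At Dusp2, the peak upstream of the gene held 2.18, 3.67 and 11.1 untreated and 25.8, 43.7 and 63.0 after LPS in CD45.1 cells. In CD45.2 cells the values were 5.44, 3.69 and 3.02 and then 27.7, 39.2 and 73.1. The increases were 2.93 ± 0.47 and 3.62 ± 0.51 (adjusted p = 5.52e-08 and 1.76e-10), and the peak was 105 bp wide untreated and 209 bp after LPS. The Dusp2 promoter itself rose in CD45.2 cells, from 81.6, 84.1 and 83.5 to 149, 139 and 191 (0.95 ± 0.20, adjusted p = 4.27e-05). In CD45.1 cells it went from 80.3, 76.6 and 116 to 107, 112 and 146 (0.42 ± 0.20, adjusted p = 0.118).

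The Dusp1 peak 6422 bp upstream held 3.42, 4.29 and 19.7 untreated and 41.6, 34.0 and 29.4 after LPS in CD45.1 cells (1.96 ± 0.47, adjusted p = 0.000482). In CD45.2 cells it held 2.72, 1.58 and 1.37 and then 20.2, 33.5 and 39.8, at least 14.4-fold higher with untreated libraries set to 3 tags each (adjusted p = 1.09e-08). The peak was 105 bp wide untreated and 186 bp after LPS, so this bound is on tags per peak and not per base. Both calls held in all 17 alternatives, width scaling among them. The Dusp1 promoter did not pass in either population (-0.29 ± 0.21 and 0.36 ± 0.20).

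The other 2 peaks called in both populations were at Dusp6. That 7355 bp downstream went from 56.3, 54.5 and 56.6 to 85.5, 119 and 81.9 in CD45.1 cells (0.76 ± 0.22, adjusted p = 0.00585) and from 47.9, 38.0 and 42.9 to 126, 119 and 80.5 in CD45.2 cells (1.32 ± 0.22, adjusted p = 2.57e-07). That 51591 bp upstream rose from 6.85, 4.29 and 18.6 to 39.8, 34.0 and 42.7 in CD45.1 cells (2.00 ± 0.47, adjusted p = 0.00041). In CD45.2 cells it stayed low, from 1.09, 0.527 and 0.550 to 2.52, 1.89 and 6.56, at least 1.69-fold higher (adjusted p = 0.0404), and this call was lost per base of width (adjusted p = 0.101) and without the CD45.2 library of LPS mouse 3 (adjusted p = 0.332) or any one untreated CD45.2 library (0.0597 to 0.160).

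Of the start-site peaks, that of Socs3 rose in CD45.2 cells from 91.4, 81.7 and 73.6 to 127, 141 and 149 (0.78 ± 0.22, adjusted p = 0.00469). In CD45.1 cells it went from 76.9, 53.0 and 91.0 to 144, 79.6 and 93.0 (0.55 ± 0.23, adjusted p = 0.0660). The Socs3 peak was 170 bp wide untreated and 256 bp after LPS, and per base of width the CD45.2 call was lost (adjusted p = 0.139). The Dusp5 promoter rose in CD45.1 cells from 106, 109 and 126 to 167, 220 and 169 (0.68 ± 0.16, adjusted p = 0.000488), and this call was lost in the same way (adjusted p = 0.115).

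Among the falls, the Dusp16 intron peak decreased in CD45.1 cells from 28.9, 30.9 and 36.9 to 17.6, 13.6 and 12.6 (-1.12 ± 0.40, adjusted p = 0.0290), a call lost in 6 of 17 alternatives. It held 8.70, 16.9 and 12.6 and then 18.9, 10.7 and 10.1 in CD45.2 cells (-0.09 ± 0.43). The Dusp6 peak 65334 bp upstream fell in CD45.1 cells from 39.8, 36.7 and 35.1 to 13.5, 12.6 and 11.2 (-1.58 ± 0.41, adjusted p = 0.0015), where the peak narrowed from 264 to 152 bp, and the call was lost per base of width (adjusted p = 0.416). In CD45.2 cells the single fall was at a Dusp4 intron peak 10233 bp inside the gene, from 31.6, 42.7 and 43.4 to 18.9, 23.997 and 11.8 (-1.13 ± 0.38, adjusted p = 0.0233), lost in 4 of 17 alternatives with adjusted p up to 0.219.

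Of the other falls in CD45.1 cells, 2 were at Dusp1, 1181 bp upstream (-0.75 ± 0.24, adjusted p = 0.0124, and 0.238 per base of width) and 10684 bp downstream (-0.65 ± 0.25, adjusted p = 0.0488). The latter was lost in 10 of 17 alternatives, with adjusted p = 0.287 for total-tag scaling and 0.375 without the CD45.1 library of LPS mouse 3. Rises in CD45.1 cells lay 2410 bp upstream of Dusp4 (1.29 ± 0.40), 38596 bp downstream of it in the Tnks intron (1.05 ± 0.35) and 39006 bp downstream of Dusp6 (0.67 ± 0.25), all 3 lost per base of width (adjusted p from 0.132 to 0.546) and in 4, 5 and 8 of 17 alternatives in all. The Dusp6 peak 20955 bp upstream rose in CD45.2 cells (2.33 ± 0.66, adjusted p = 0.00437), a call lost without the CD45.2 library of untreated mouse 5 (adjusted p = 0.112).

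A call in one population alone is not a difference between them. The interaction of population and LPS was called at 0 of the 51 member peaks by DESeq2 (0.242% of all matched peaks) and at 0 by edgeR. By DESeq2 4 members had an unadjusted p under 0.05. The share of all matched peaks under that limit was not computed, so this count says nothing particular to the members. The smallest adjusted p was 0.372, at the Dusp1 peak 6422 bp upstream (-2.44 ± 0.83). These SEs leave room for sizeable differences in response.

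**Figure D4:**
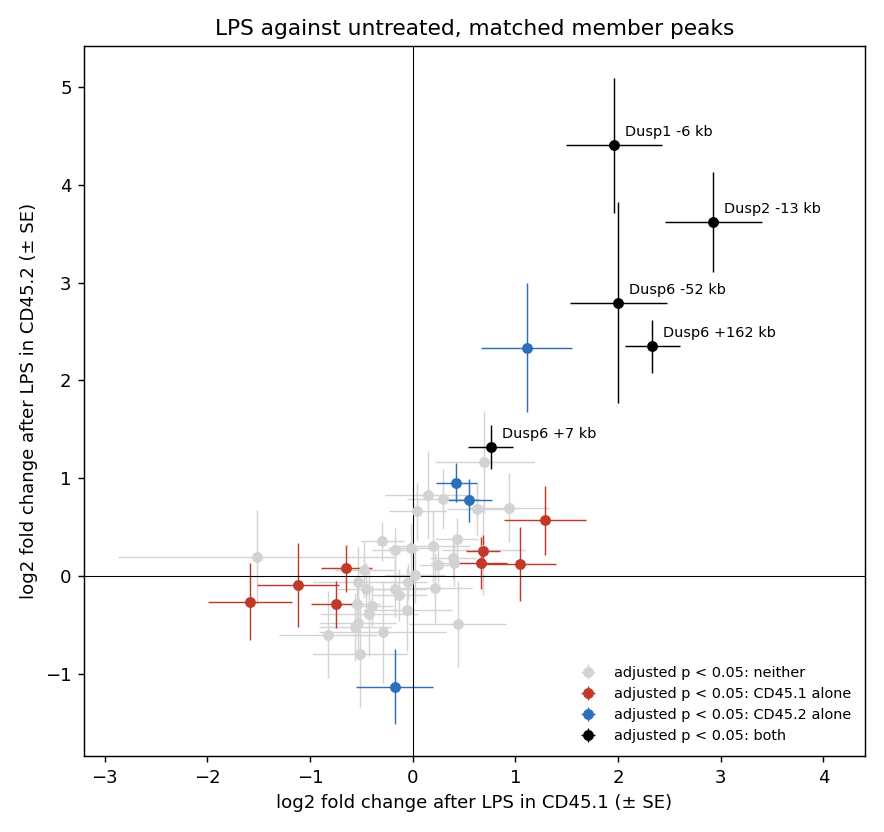
Log2 fold change after LPS in CD45.1 (horizontal) and CD45.2 cells (vertical) at 51 matched SOCS and DUSP peaks, with bars for the SE and colours for an adjusted p under 0.05 in both, either or neither population. The 5 peaks called in both lie in the upper right, among them the Dusp6 peak at 2.33 and 2.35.

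Some member peaks existed in the LPS table alone. Of 85 LPS member peaks 26 (30.6%) overlapped no merged untreated peak, against 20.2% of all LPS peaks. Some of them still overlapped peaks in the own lists of untreated libraries. Of the 26, 5 (5.88% of members, 1.42% of all) were merged from at least 5 lists. Singled out after the values were seen, these 5 were at Socs1, Dusp1 and Dusp6. The Socs1 peaks 30812 bp (chr16:10754719-10754916) and 108664 bp downstream (chr16:10676863-10677067) were in the own lists of 6 of 6 LPS libraries and of 0 of 6 untreated libraries, though the latter were deeper. The Dusp1 peak 4208 bp upstream was in 5 LPS and 0 untreated lists. The Dusp6 peaks 12293 bp upstream and 129845 bp downstream were in 6 LPS lists each and in 2 and 1 untreated lists. The last of these ends 6 bp short of an untreated Dusp6 peak (chr10:98855824-98855918) that overlapped own peaks of all 6 untreated libraries, so a shifted peak boundary and a newly open site cannot be told apart there. Of the 81 untreated member peaks 19 (23.5%) overlapped no merged LPS peak, against 25.9% of all untreated peaks, and 0 of them were merged from at least 5 lists (1.95% of all untreated peaks). By own lists, several of the 19 were still found in most untreated libraries. The Dusp4 peaks 63268 bp upstream and 69188 bp downstream and the Dusp6 peaks 69594 and 130487 bp downstream were in 5 untreated and 0 LPS lists. That 154069 bp downstream of Dusp6 was in 5 untreated lists and 1 LPS list. The number of merged lists is therefore no measure of how many libraries held a peak.

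Motifs were searched on both strands in the 200 bp around the centre of each peak. The STAT motif TTCNNNGAA was in 10 of 81 untreated (12.3%) and 11 of 85 LPS member peaks (12.9%), against 5.37% and 5.74% of all peaks. The start-site peaks of Socs2, Socs3 and Cish held it in both tables. The AP-1 motif TGANTCA was in 5 and 16 member peaks (6.17% and 18.8%) against 8.11% and 13.4% of all peaks, and the CEBP motif TTGCNNAA in 7 and 16 (8.64% and 18.8%) against 9.82% and 12.2%. The ETS motif GAGGAAGT was in 12 and 12 (14.8% and 14.1%) against 9.45% and 8.72%, the IRF motif in 8 and 5 (9.88% and 5.88%) against 3.85% and 3.47%, and the NF-kappaB motif in 2 and 8 (2.47% and 9.41%) against 3.35% and 4.32%. The RUNX motif TGTGGTT was in 2 and 3 (2.47% and 3.53%) against 5.65% and 5.82%, and the CRE motif TGACGTCA in 1 and 2 member peaks (1.23% and 2.35%) against 1.18% and 1.26%. A match describes letters and is not a binding site.

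Other genes of these pathways were compared by their summed peaks. At rest, none of the other SOCS genes (0 of 3 tested), the other MAP kinase phosphatases (0 of 4) or the JAK-STAT phosphatases and PIAS genes (0 of 9) was called, against 15.1% of all genes. Of the 11 tested atypical DUSPs, Dusp26 (54.2 ± 6.69 normalised tags in CD45.1 against 149 ± 19.5 in CD45.2, SD, n = 3, log2 fold change -1.44 ± 0.21, adjusted p = 3.23e-10 by DESeq2) and Dusp27 (-0.53 ± 0.19, adjusted p = 0.0351) were lower in CD45.1 cells. The ERK pathway inhibitors split, Spry1 being lower (-0.49 ± 0.13, adjusted p = 0.00189) and Spred1 higher in CD45.1 cells (0.55 ± 0.12, adjusted p = 3.18e-05), 2 of 6 tested. Of 8 tested MAP kinases, Mapk14, which encodes p38 alpha, was higher (0.48 ± 0.14, adjusted p = 0.00446). After LPS, 2 of 40 tested genes of these lists were called, against 6.98% of all genes, Dusp26 lower (-0.98 ± 0.27, adjusted p = 0.0076) and Dusp13 higher in CD45.1 cells (0.81 ± 0.23, adjusted p = 0.0074).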

How the data were processed

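ATAC-seq libraries were processed by the authors. Per the submitters' processing notes, bcl2fastq 2.17.1.14, Bowtie2, Picard 1.108 and HOMER were used with mm9, and Bowtie2 and HOMER versions are not given in the sources used here. The authors called peaks in each library with HOMER's findPeaks (fragment length 300 bp, false discovery rate 0.001, 4-fold over the local region, per the file headers), and each deposited peak list carries a score, of which the positions alone were used here. The authors merged the 6 lists of each treatment, annotated each merged peak to the nearest start site and deposited its tags per library as estimated counts in steps of 0.5, since 51.6% of the values are whole. Tags were not depth-normalised by the authors. Every value column was assigned to a library by its name.

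Here, counts were rounded and tested with DESeq2 1.42.0 (R 4.3.3, Wald test, median-of-ratios size factors, Benjamini-Hochberg adjustment) over all peaks that exceeded 10 counts in any library, each table alone, 3 against 3 libraries. Gene sums add all peaks annotated to a gene. Peaks of both tables were matched one to one at a reciprocal overlap of 50%, and 1 model over 12 libraries gave the interaction and the LPS effects. A fold is a lower bound, computed at 3 tags per library, if no library on the lower side exceeded 3 tags. For LPS against untreated, such a bound is not corrected for peak width. An adjusted p under 0.05 was a call. The fits were tested on simulated data. edgeR 4.0.16, total-tag scaling, no filter, a mouse block and leaving out each library were the alternatives.

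Replicates are individual mice. CD45.1 and CD45.2 libraries of a number were taken as the same animal, which the shared number in the labels implies without stating it. Deviations from the group means correlated at 0.081 to 0.087 within untreated and at -0.067 to 0.149 within LPS mice. Between different numbers they correlated at -0.102 to 0.0011 untreated and at -0.159 to 0.117 after LPS, so the LPS values do not show the pairing. The median count per merged peak was 16 to 35 tags untreated and 8 to 23.5 after LPS, and bounds cover counting error only. Peaks named for the populations and the interaction were, for each member, that nearest to the start site and every one called, at most 10 a comparison. Outside this rule, every member peak called for LPS against untreated was named as well. Sequence of untranslated exons is not printed. Members and lists were chosen with earlier results of these data known.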

Additional observations from a re-analysis of the deposited data

How the results depend on the processing

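The 14 population calls at single peaks kept their direction under every alternative run in which the peak was tested. Among member peaks at rest, 10 calls became 17 with edgeR, 5 with total-tag scaling, 5 with the mouse as a replicate block and 3 at an adjusted p under 0.01 and over 4-fold, and 4 to 7 when a library was left out. After LPS, 4 calls became 9 with edgeR and 2 at that stricter limit, and 1 to 4 without a library. The replicate block gave 3 calls after LPS, 0 gene sums in both tables and an interaction count of 0. Gene sums at rest gave 2 calls with edgeR. LPS effects in CD45.1 cells went from 13 to 8 with the 2-fold limit and 5 with total-tag scaling, and to 7 to 13 without a library, and in CD45.2 cells from 9 to 5 with total-tag scaling and 6 to 10 without a library. The width scaling was chosen after seeing the data. The cause was not tested.

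Some gene sums, none of them called by DESeq2, changed sign. At rest these were Dusp2 (-0.012) and Dusp16 (-0.010) with edgeR, and with promoter peaks alone Socs1 (0.014), Cish (-0.14), Dusp4 (0.057, against -0.28 over all peaks, which edgeR called), Dusp5 (0.030), Dusp6 (-0.11) and Dusp16 (-0.21). After LPS they were Dusp4 (0.018), Dusp6 (-0.12) and Dusp16 (-0.13) with promoter peaks alone, and Socs1 (0.073) and Dusp4 (0.088) with total-tag scaling. When a library was left out, the sums at rest ranged from -0.020 to 0.19 for Cish, -0.18 to 0.15 for Dusp2, -0.095 to 0.043 for Dusp5 and -0.015 to 0.066 for Dusp16. Those after LPS ranged from -0.20 to 0.099 for Socs1, -0.14 to 0.0042 for Dusp4, -0.052 to 0.25 for Dusp6 and -0.050 to 0.079 for Dusp16. At peaks under about 10 tags a difference may not be detectable.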
